A study of Arabidopsis thaliana with 4 samples.

Results

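The 10 genes described here are transcription factors of the ethylene response factor (ERF) family of Arabidopsis thaliana: ERF1A (AT4G17500), ERF2 (AT5G47220), ERF13 (AT2G44840), ERF5 (AT5G47230), ERF6 (AT4G17490), ERF104 (AT5G61600), ERF105 (AT5G51190), ERF1B (AT3G23240), ORA59 (AT1G06160) and ERF4 (AT3G15210). They were chosen by locus identifier, for their place in groups VIII and IX of the family, from the 33602 genes of the deposited table. ERF4 is the member from group VIII and the other 9 belong to group IX. RNA came from whole seedlings of the Columbia ecotype, 14 days old, raised hydroponically in diluted MS salts lacking nitrogen under 16 h light and 8 h dark at 22 °C. Seedlings at 0 h had only that medium, and seedlings at 0.5 h had been moved into the same nitrogen-free medium supplemented with 2.5 mM glutamine. Each time was represented by 2 libraries, and the comparison addresses which genes respond early to glutamine. No seedlings moved without glutamine were among these samples, so glutamine, the transfer and the passing of time cannot be told apart. The labels do not say that the 2 libraries of a time came from separate cultures, and p-values measure only the spread between libraries, which may be technical.

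ERF proteins carry an AP2/ERF DNA-binding domain. Those of group IX are mostly activators that bind the GCC box, a short element in the promoters of defence genes, and several are induced within minutes by wounding, touch, pathogen signals, ethylene or jasmonate. Those of group VIII related to ERF4 carry an EAR motif, which recruits TOPLESS corepressors, and act as repressors. Ethylene, made by ACC synthases and ACC oxidases, lifts the block that its receptors and CTR1 place on EIN2, and EIN2 lets the factor EIN3 accumulate. EIN3 activates ERF1B directly, while the MAP kinases MPK3 and MPK6 act on other members such as ERF6 and ERF104.

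Of the 10 genes, ERF6 rose about 2-fold within 0.5 h, and no other passed the test in either direction. Of the 9 genes abundant enough to be tested, 1 was higher and 0 were lower by limma at a Benjamini-Hochberg adjusted p below 0.05, where 6.71% of 18039 tested genes were higher and 5.11% lower. At an unadjusted limma p below 0.05 there were 2 higher and 1 lower, where 13.9% of all tested genes were higher and 14.7% lower. Limma-voom on reads recovered from the deposited values gave 1 higher and 0 lower, where 7.29% and 6.02% of all tested genes were called. These shares over all genes apply to every count by these rules given for the other lists. With 9 genes, counts this small do not set the members apart from all genes. The median log2 change of the 9 was -0.03, as for all tested genes (-0.03), with a range from -0.65 to 1.02. The deposited multi-mapped share was 0 for all 10 genes, so none shared reads with a close copy.

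Several members lie beside another gene of the family. In the TAIR10.1 annotation ERF6 and ERF1A stand head to head on chromosome 4, with 5042 bases between their starts and no annotated gene between them. ERF2 and ERF5 stand head to head on chromosome 5, with 6925 bases between their starts and 2 loci between them, of which 1 is protein coding. Each of these pairs joins a gene of subgroup IXa (ERF1A, ERF2) with a gene of subgroup IXb (ERF6, ERF5). ERF1B stands head to head with ERF98, another group IX gene, and ERF104 lies next to DEWAX on the same strand. The promoters of ERF6, ERF1A, ERF5 and ERF2 are shown because in both of these pairs each gene is one of the 10, and their values differ as described below. They run from 250 bases before to 50 bases after the annotated start, 5′ to 3′ in the gene's direction, from the RefSeq TAIR10.1 genome. Capitals mark exact matches, on either strand, to the 6 motifs searched: GCCGCC (the GCC box), CACGTG (a G box), TTGACC and TTGACT (forms of the W box bound by WRKY factors), CGCGTT (a rapid stress element) and ACCGAC (a dehydration-responsive element core).
ERF6 promoter, chr4:9754112-9754411, minus strand: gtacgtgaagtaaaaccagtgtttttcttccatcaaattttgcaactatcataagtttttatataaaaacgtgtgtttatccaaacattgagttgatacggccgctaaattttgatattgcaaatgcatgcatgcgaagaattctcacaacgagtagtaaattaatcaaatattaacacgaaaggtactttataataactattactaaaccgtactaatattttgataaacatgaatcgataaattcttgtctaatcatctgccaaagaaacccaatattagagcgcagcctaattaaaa
ERF1A promoter, chr4:9758953-9759252, plus strand: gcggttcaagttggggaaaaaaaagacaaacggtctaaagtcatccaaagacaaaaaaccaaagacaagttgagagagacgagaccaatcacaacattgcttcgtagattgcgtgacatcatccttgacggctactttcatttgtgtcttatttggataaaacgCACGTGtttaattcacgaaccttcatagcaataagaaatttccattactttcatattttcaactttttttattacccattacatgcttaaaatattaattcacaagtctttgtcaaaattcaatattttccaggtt
ERF5 promoter, chr5:19179631-19179930, plus strand: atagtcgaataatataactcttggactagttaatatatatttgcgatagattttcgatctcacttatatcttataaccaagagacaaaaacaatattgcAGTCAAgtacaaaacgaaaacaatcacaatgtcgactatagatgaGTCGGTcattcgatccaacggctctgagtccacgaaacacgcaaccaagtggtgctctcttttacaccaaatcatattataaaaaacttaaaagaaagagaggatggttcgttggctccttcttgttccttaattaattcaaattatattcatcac
ERF2 promoter, chr5:19172907-19173206, minus strand: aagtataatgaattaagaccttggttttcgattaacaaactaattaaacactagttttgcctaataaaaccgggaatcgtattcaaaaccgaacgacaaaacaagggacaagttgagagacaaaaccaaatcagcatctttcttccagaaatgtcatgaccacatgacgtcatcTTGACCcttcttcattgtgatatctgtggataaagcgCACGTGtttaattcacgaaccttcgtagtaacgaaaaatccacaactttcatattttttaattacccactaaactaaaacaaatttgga
The ERF6 window held none of the 6 motifs. ERF1A and ERF2 each held a G box, whose first base lay 86 and 39 bases before the start, and ERF2 also held TTGACC. ERF5 held TTGACT and ACCGAC, both on the opposite strand. Around the G box, ERF1A and ERF2 shared a run of 26 identical bases, cgCACGTGtttaattcacgaaccttc, and these 2 windows were the only ones holding it in this orientation among 27443 protein-coding genes. The longest run shared by any other pair of the 4 windows was 10 bases, between ERF5 and ERF2.

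Over all 10 members, the G box was found in 4 windows (ERF1A, ERF2, ERF4 and ORA59), against 7.68% of the 27443 windows. TTGACT was found in 3 (ERF4, ERF5 and ERF105) against 21.8%, and TTGACC in 1 against 14.2%. The GCC box was found in 1 (ORA59) against 2.57%, ACCGAC in 1 against 5.7%, and CGCGTT in 0 against 3.4%. Among the 21 other genes of groups VIII and IX listed below, the G box was found in 4, TTGACT in 7 and TTGACC in 1. The GCC box was found in 2 of the 21, ACCGAC in 2 and CGCGTT in 1. A G box was thus not particular to the members. No 2 of the 6 motifs overlapped in a member's window. The gene models behind the deposited values may start elsewhere, so these windows describe the annotation and not the starts used in these seedlings.

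**Figure D1:**
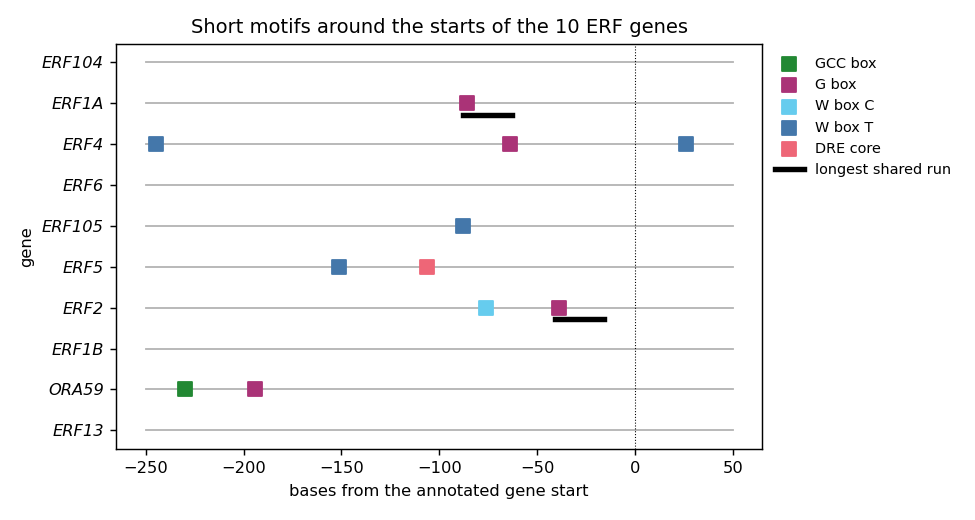
Positions of exact motif matches on either strand (squares, placed at the first base) in windows from 250 bases before to 50 bases after the annotated start of each of the 10 genes; the x axis is in bases. The thick black bars mark the run of 26 bases shared by ERF1A and ERF2, and the lines of ERF6, ERF104, ERF1B and ERF13 carry no match.

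Levels are given as RPKM, reads per kilobase of gene scaled to library depth, with TMM factors applied by the authors, and can be set side by side between genes since they are per length. At 0 h ERF104 was the most abundant member at 197 ± 5.98 RPKM (SD, n = 2), followed by ERF1A, ERF4, ERF105, ERF5 and ERF6, which lay between 93.8 and 50.9 RPKM. ERF2 was at 19.5, and ERF1B, ORA59 and ERF13 were at 3.33, 2.18 and 0.421 RPKM. The values of ERF1A and ERF4 overlapped at 0 h, as did those of ERF1B and ORA59, and every other pair of neighbours in this order was apart. At 0.5 h the order was the same but for ERF6, which moved from rank 6 to rank 4, above ERF105 and ERF5. At 0.5 h the values of ERF1A and ERF4 overlapped, as did those of ERF4 and ERF6, while ERF6 and ERF105 were apart. The 7 members with a mean of at least 10 RPKM held 470 to 5406 recovered reads in a library, and the other 3 held 9 to 94. Counting error is therefore small for the former and considerable for the latter.

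**Figure D2:**
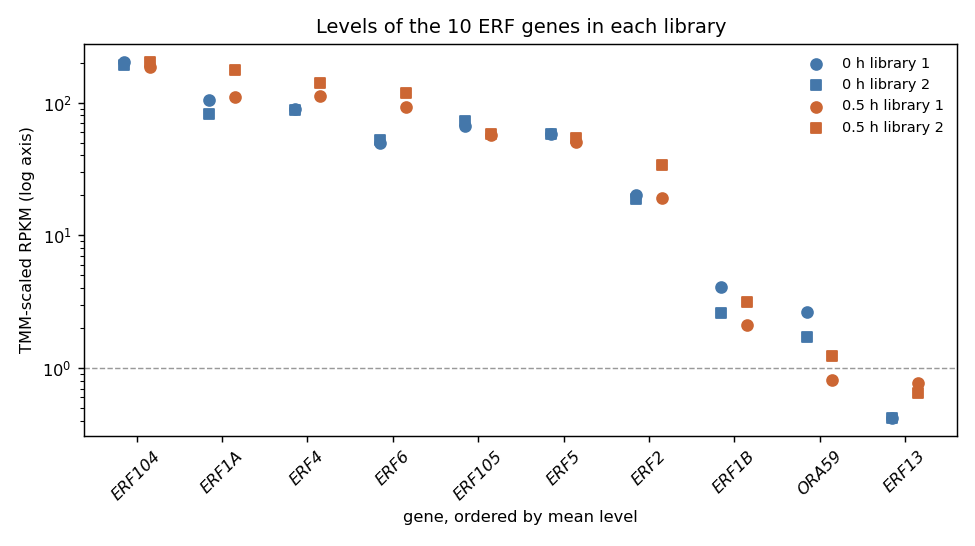
TMM-scaled RPKM (log axis) of the 10 genes in each of the 4 libraries, with genes ordered by mean level; blue is 0 h, orange 0.5 h, circles library 1 and squares library 2. The dashed line marks 1 RPKM, the mean a gene needed to be tested; ERF6 is the gene whose orange points, at 92.9 and 117 RPKM, stand clear of the blue ones at 49.8 and 52.0.

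ERF6 is a group IXb activator known to restrain leaf growth under osmotic stress and to be stabilised by MPK3 and MPK6. It had 49.8 and 52.0 RPKM at 0 h and 92.9 and 117 RPKM at 0.5 h. Both later libraries lay above both earlier ones, and the gap between the times exceeded the gap within either. The log2 change, on the log2(RPKM + 1) scale used throughout, was 1.02 ± 0.16 (limma standard error, adjusted p = 0.013), with a 95% interval from 0.64 to 1.40. Leaving out the 2nd library at 0.5 h gave 0.86 (adjusted p = 0.054), and over 15 alternative settings the adjusted p ran from 0.0049 to 0.12. The highest of these came from testing all genes without a minimum level, a setting under which 2 of 33602 genes passed.

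ERF5, the group IXb gene most often studied together with ERF6, did not pass. It had 57.9 and 58.0 RPKM at 0 h and 50.1 and 54.1 RPKM at 0.5 h. The groups did not overlap, but the fitted change of -0.15 ± 0.13 did not pass (adjusted p = 0.49). Its 95% interval ran from -0.47 to 0.16. The ratio of ERF6 to ERF5 was 0.861 and 0.896 in the 0 h libraries and 1.85 and 2.17 in the 0.5 h libraries. ERF6 was thus the lower of the pair in both early libraries and the higher in both late ones. An exact two-sided permutation test of this ratio, chosen after the values were seen, gave p = 0.333, the smallest that 2 libraries against 2 allow.

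The other IXb members, ERF104 and ERF105, did not pass either. ERF104, a substrate of MPK6 in flagellin signalling, had 201 and 193 RPKM at 0 h and 184 and 203 at 0.5 h. The groups overlapped, the change was -0.03 ± 0.15 (adjusted p = 0.92), and its 95% interval from -0.38 to 0.32 did not include a 2-fold change. ERF105, a cold-responsive factor linked to freezing tolerance, had 67.0 and 73.2 RPKM at 0 h and 56.6 and 57.6 at 0.5 h. Both later values lay below both earlier ones, yet the change of -0.29 ± 0.13 did not pass (adjusted p = 0.21; 95% interval -0.61 to 0.03). ERF105 overlaps the gene AT5G51180 in the TAIR10.1 annotation. Whether reads were counted by strand is not stated in the labels or the file, so reads from the overlap could belong to either gene.

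The 2 IXa activators ERF1A and ERF2 differed between the libraries of 0.5 h. ERF1A had 105 and 82.6 RPKM at 0 h and 111 and 175 at 0.5 h. ERF2 had 20.3 and 18.7 RPKM at 0 h and 19.0 and 34.0 at 0.5 h. In both genes the 2nd library at 0.5 h stood above the other 3, while the 1st was close to the 0 h values. That library was 1.58-fold above its replicate for ERF1A and 1.79-fold for ERF2. Only 4.21% and 2.42% of tested genes had a larger gap between these 2 libraries on the log2(RPKM + 1) scale. The fitted changes were 0.57 ± 0.24 for ERF1A (adjusted p = 0.18) and 0.37 ± 0.25 for ERF2 (adjusted p = 0.38), and neither passed. For ERF2 a single library set the outcome: leaving out the 1st library at 0.5 h gave 0.77 (adjusted p = 0.034), and leaving out the 2nd gave -0.03 (adjusted p = 0.93). For ERF1A the same fits gave 0.90 (adjusted p = 0.052) and 0.24 (adjusted p = 0.57). Chloroplast genes took 0.379% of reads in the 2nd library at 0.5 h and 0.0569 to 0.0974% elsewhere. That library was the lower of its pair in the root genes EXPA7 (49 and 1 reads), PIN2 (85 and 17) and COBL9 (21 and 7). The root genes PYK10 (165 and 166 RPKM), SCR (11.8 and 12.6), SHR (7.11 and 6.42) and WER (1.06 and 1.16) differed less. At 0 h, EXPA7 (10 and 29 reads) and COBL9 (3 and 29) also differed between the libraries, while PIN2 (37 and 38) was level. The part of these differences in the ERF1A and ERF2 values was not tested. The ratio of ERF1A to ERF2, chosen after the values were seen, varied less than either gene, from 4.42 to 5.81 over the 4 libraries. Its values at 0 h and 0.5 h overlapped (exact two-sided permutation p = 0.667). The share of other gene pairs with so steady a ratio was not computed, so it does not set this pair apart. The promoter windows of these genes share the run of 26 bases around the G box, and its part in their values was not tested.

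ERF13, the third IXa member, was close to the detection limit. It had 0.423 and 0.420 RPKM at 0 h and 0.770 and 0.650 at 0.5 h, from 9 and 10 reads and 19 and 12 reads. The later values were the higher, but the mean was below 1 RPKM and the gene was not tested.

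ERF1B and ORA59, of subgroup IXc, join ethylene and jasmonate signals and activate defensin genes, and neither passed. ERF1B had 4.08 and 2.58 RPKM at 0 h and 2.13 and 3.15 at 0.5 h. The groups overlapped, and the change was -0.24 ± 0.23 (adjusted p = 0.53; 95% interval -0.79 to 0.30). ORA59 had 2.65 and 1.70 RPKM at 0 h and 0.811 and 1.22 at 0.5 h. Both later values were below both earlier ones, and the change of -0.65 ± 0.22 did not pass (adjusted p = 0.11; 95% interval -1.18 to -0.11). It rests on 20 to 59 reads a library, and with a pseudocount of 0.1 in place of 1 it was -1.02 (adjusted p = 0.12). An induction of ERF1B or ORA59 by 2-fold lay outside both intervals on this scale, which understates the change of low genes.

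ERF4, the EAR-motif repressor, had 90.0 and 87.4 RPKM at 0 h and 113 and 139 at 0.5 h. Both later libraries were above both earlier ones, but the change of 0.50 ± 0.16 did not pass (adjusted p = 0.092; 95% interval 0.12 to 0.87). Under quantile scaling it passed (0.57, adjusted p = 0.046), and over the 15 alternatives the adjusted p ran up to 0.34. Among the 9 tested members the groups failed to overlap in 6, with ERF6, ERF1A and ERF4 higher and ERF5, ERF105 and ORA59 lower at 0.5 h. That is 3 of 9 in each direction, against 27.1% and 32.6% of all tested genes.

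**Figure D3:**
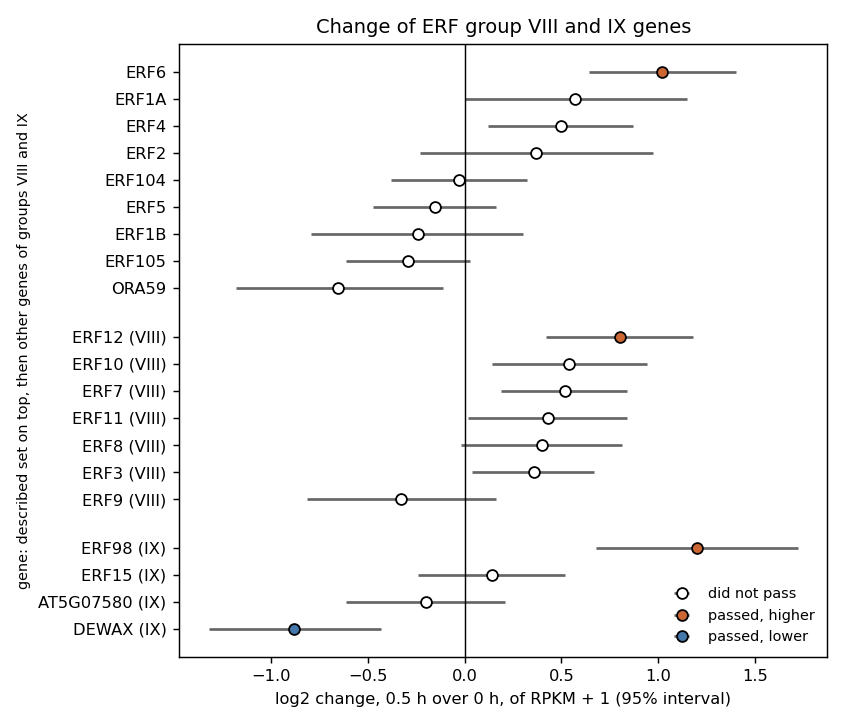
Log2 change of RPKM + 1 from 0 h to 0.5 h (points) with its 95% limma interval (bars) for the 9 tested genes described here and, below them, the 11 other tested genes of groups VIII and IX. Orange points passed as higher, the blue point passed as lower and white points did not pass; ERF6 (1.02), ERF12 (0.80) and ERF98 (1.2) are the orange points and DEWAX (-0.88) the blue one.

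The rest of both groups, listed from the subfamily notes of the annotation and known locus numbers, held 13 further genes of group VIII and 8 of group IX. Of these, 7 and 4 had a mean of at least 1 RPKM. Among the 7 of group VIII, 1 was higher and 0 were lower (at an unadjusted p, 5 and 0, against 13.9% and 14.7% of all genes; with limma-voom, 2 and 0), with a median log2 change of 0.43. The one that rose was ERF12, an EAR-motif repressor, with 1.70 and 2.02 RPKM at 0 h and 4.14 and 3.83 at 0.5 h (0.80 ± 0.16, adjusted p = 0.024). ERF12 did not pass in any fit that left out a library (adjusted p 0.063 to 0.13). Without overlap between the times, 6 of the 7 were higher and 1 was lower, against 27.1% and 32.6% of all tested genes. Besides ERF12, the higher ones were ERF3, ERF7, ERF8, ERF10 and ERF11, and none of these 5 passed. Of them ERF7, an EAR-motif repressor of abscisic acid responses, came nearest, with 22.1 and 20.8 RPKM at 0 h and 29.0 and 33.4 at 0.5 h (0.52 ± 0.14, adjusted p = 0.057). ERF3 had 42.6 ± 1.68 and 54.8 ± 2.68 RPKM (SD, n = 2; 0.36 ± 0.13), ERF11 had 18.9 ± 3.37 and 25.6 ± 3.58, ERF8 had 14.5 ± 3.35 and 19.2 ± 1.39, and ERF10 had 2.28 ± 0.474 and 3.75 ± 0.0424. ERF9 had its later values below its earlier ones, at 2.21 ± 0.664 and 1.53 ± 0.128 RPKM (-0.33 ± 0.20, adjusted p = 0.34).

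Of the 4 other group IX genes tested, 1 rose and 1 fell (1 and 1 also at an unadjusted p and with limma-voom; median -0.03). ERF98, a small factor linked to ascorbate synthesis, rose from 2.12 and 1.2 RPKM to 4.43 and 5.71 (1.2 ± 0.22, adjusted p = 0.019), from 13 to 50 reads a library. The ratio of ERF98 to its neighbour ERF1B was 0.521 and 0.465 at 0 h and 2.08 and 1.81 at 0.5 h. DEWAX, a repressor of cuticular wax synthesis that is active in the dark, fell from 409 and 322 RPKM to 178 and 218 (-0.88 ± 0.19, adjusted p = 0.031). At 0 h it was above its neighbour ERF104, with ratios of 2.03 and 1.67, and at 0.5 h about level with it, with ratios of 0.968 and 1.07. ERF98 lost its call without the 2nd library of 0 h or of 0.5 h (adjusted p = 0.071 and 0.078), and DEWAX lost its call without the 1st of 0 h or either of 0.5 h (0.075 to 0.11). AT5G07580, which overlaps AT5G07590, and ERF15 did not pass, at 64.9 ± 5.64 and 56.9 ± 10.8 RPKM and at 2.97 ± 0.225 and 3.38 ± 0.453 RPKM. AT1G28160, AT1G80580, ESE1, AT5G43410 and ERF14 had 0 recovered reads in all libraries, which allows up to 0.189 to 0.367 RPKM (3 reads in the shallowest library, counting error only). The 5 remaining genes, DRN, DRNL, PUCHI, LEP and AT4G18450, lay below 1 RPKM in every library.

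Ratios within a library were also compared for the 5 neighbouring pairs. For ERF6 over ERF1A they were 0.475 and 0.630 at 0 h and 0.840 and 0.670 at 0.5 h. For ERF5 over ERF2 they were 2.85 and 3.10, then 2.63 and 1.59. For ERF12 over ERF11 they were 0.0799 and 0.123, then 0.179 and 0.136. In each of the 5 pairs the ratios at 0 h and 0.5 h did not overlap. The share of other gene pairs with such ratios was not computed, so this count does not set neighbours apart. For the levels of single genes, 27.1% of all tested genes were higher and 32.6% lower without overlap. The exact two-sided permutation p was 0.333 in every pair, the smallest possible, and adjustment over the 8 ratios examined could not lower it.

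**Figure D4:**
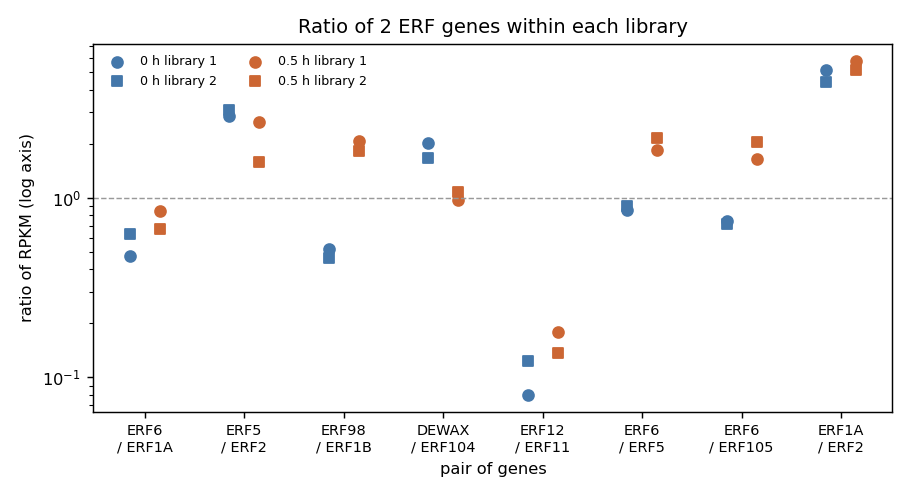
Ratio of the RPKM of 2 ERF genes within each library (log axis) for 5 neighbouring pairs and 3 pairs chosen after the values were seen; blue is 0 h, orange 0.5 h, circles library 1 and squares library 2. ERF6 over ERF5 crosses 1, from 0.861 and 0.896 to 1.85 and 2.17, whereas ERF1A over ERF2 stays between 4.42 and 5.81.

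Genes of ethylene synthesis, upstream of these factors, included 3 that rose among 10 tested and 0 that fell (3 and 1 at an unadjusted p; 3 and 0 with limma-voom; median 0.05). All 3 encode ACC synthases, which make the ethylene precursor. ACS11 rose from 22.1 and 20.9 RPKM to 44.1 and 58.2 (1.2 ± 0.17, adjusted p = 0.0091) and passed in every fit that left out a library. ACS7 rose from 61.0 and 57.0 RPKM to 87.1 and 106 (0.70 ± 0.16, adjusted p = 0.034), and ACS8 from 3.60 and 2.00 RPKM to 6.63 and 6.49 (1.02 ± 0.22, adjusted p = 0.030). ACS7 did not pass without either library of 0 h or the 2nd of 0.5 h, nor ACS8 without the 2nd of 0 h or either of 0.5 h (adjusted p 0.064 to 0.14). ACS6, a synthase stabilised by MPK3 and MPK6, had 18.6 and 14.9, then 13.7 and 13.8 RPKM and did not pass. The abundant ACC oxidase gene ACO4 had 271 ± 64.6 and 234 ± 12.0 RPKM (SD, n = 2) and did not pass.

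Of 13 genes of ethylene perception and signalling, all tested, 3 fell and 0 rose (6 and 0 at an unadjusted p; 3 and 0 with limma-voom; median -0.23). EBF2, an F-box protein that marks EIN3 for degradation, fell from 109 and 136 RPKM to 34.1 and 53.6 (-1.48 ± 0.23, adjusted p = 0.013) and passed in every fit that left out a library. Up to a share of 0.22 of its reads were multi-mapped and it overlaps other annotated genes, so its level is uncertain. The receptor gene ETR2 fell from 13.7 and 13.0 RPKM to 7.84 and 7.76 (-0.70 ± 0.12, adjusted p = 0.017), and RTE1, a modulator of receptor ETR1, from 13.5 and 13.5 RPKM to 8.91 and 9.21 (-0.53 ± 0.12, adjusted p = 0.038). EBF2, ETR2 and ERF1B are all known to be raised by ethylene itself, and the part of ethylene in these values was not tested. ERF1B did not pass (-0.24), nor did the other receptor genes ETR1 (0.05), ERS1 (-0.12), ERS2 (-0.10) and EIN4 (0.24). RTE1 passed in none of the fits that left out a library (adjusted p 0.082 to 0.17), and ETR2 only in that without the 1st of 0.5 h (otherwise 0.065 to 0.10). EIN3 had 121 ± 3.77 and 88.0 ± 3.67 RPKM and EBF1 108 ± 24.7 and 66.3 ± 5.84 RPKM, and neither passed (adjusted p = 0.080 and 0.066).

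Among 7 kinases and jasmonate components upstream of the members, 2 rose and 0 fell (5 and 2 at an unadjusted p; 3 and 0 with limma-voom; median 0.57). Both encode MAP kinase kinases. MKK4, which activates MPK3 and MPK6, went from 8.59 and 10.3 RPKM to 22.4 and 29.8 (1.37 ± 0.17, adjusted p = 0.0072) and MKK9 from 43.0 and 33.6 RPKM to 60.2 and 79.4 (0.85 ± 0.19, adjusted p = 0.036). MKK4 overlaps another annotated gene. MKK9 did not pass without either library of 0 h or the 2nd of 0.5 h (adjusted p 0.054 to 0.14). MPK3, which also overlaps another gene, had 145 ± 4.45 and 199.6 ± 6.57 RPKM and did not pass (adjusted p = 0.087). MPK6, which overlaps other annotated genes, went the other way, with 58.1 and 60.7 RPKM at 0 h and 43.1 and 42.4 at 0.5 h. Its change of -0.46 ± 0.13 did not pass either (adjusted p = 0.067). MPK6 and the jasmonate receptor gene COI1 (-0.43 ± 0.14) were the 2 lower at an unadjusted p.

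Of the 8 corepressor genes through which EAR-motif factors act, 0 were higher and 0 lower (0 and 2 at an unadjusted limma p; 0 and 0 with limma-voom; median -0.18). The most abundant were SAP18, at 80.5 ± 11.1 and 82.8 ± 12.8 RPKM, and the histone deacetylase gene HDA19, at 51.5 ± 5.78 and 53.2 ± 3.78 RPKM.

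Of 8 defence genes listed as GCC-box targets, 5 had 0 recovered reads in every library, which allows up to 0.169 to 0.531 RPKM. These were the defensins PDF1.2, PDF1.2b, PDF1.2c and PDF1.3 and the thionin THI2.1. Whether the promoters of the 8 hold the box was not examined here. Of the 3 tested, 1 rose and 0 fell (1 and 0 both at an unadjusted p and with limma-voom). PDF1.1, a defensin, went from 0.533 and 1.52 RPKM to 3.57 and 3.57 (1.22 ± 0.25, adjusted p = 0.029), from 5 to 41 reads a library. It did not pass without the 1st library of 0 h or either of 0.5 h (0.064 to 0.095). PR4, a chitin-binding protein, had 73.8 ± 14.2 and 68.0 ± 12.7 RPKM, and the chitinase CHIB, whose multi-mapped share was 0.259, 12.8 ± 2.34 and 14.1 ± 4.25 RPKM. Neither passed.

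Genes placed with ERF6 in a leaf growth and stress network included 5 that rose among 12 tested and 0 that fell (7 and 1 at an unadjusted p; 5 and 1 with limma-voom; median 0.46). GA2OX6, a gibberellin-inactivating enzyme gene known to be activated by ERF6, rose from 18.3 and 16.2 RPKM to 32.9 and 34.0 (0.92 ± 0.13, adjusted p = 0.0099). WRKY48 rose from 12.8 and 13.5 RPKM to 26.4 and 28.3 (1.00 ± 0.13, adjusted p = 0.0072). Both passed in every fit that left out a library. MYB51, a regulator of indole glucosinolates, rose from 81.1 and 73.5 RPKM to 147 and 161 (0.98 ± 0.14, adjusted p = 0.011). WRKY6 rose from 47.5 ± 4.53 to 82.4 ± 5.33 RPKM (0.79 ± 0.14), and WRKY33, a regulator of camalexin synthesis, from 105 ± 5.75 to 175 ± 2.80 RPKM (0.74 ± 0.14). MYB51 lost its call without the 2nd library of 0.5 h (adjusted p = 0.055), WRKY6 also without the 1st of 0 h (0.087 to 0.089) and WRKY33 in each such fit (0.0502 to 0.088). WRKY33 overlaps other annotated genes. The most abundant members, WRKY15 and STZ, had 202 ± 35.4 and 257 ± 11.5 RPKM and 167 ± 6.43 and 218 ± 9.89 RPKM and did not pass.

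**Figure D5:**
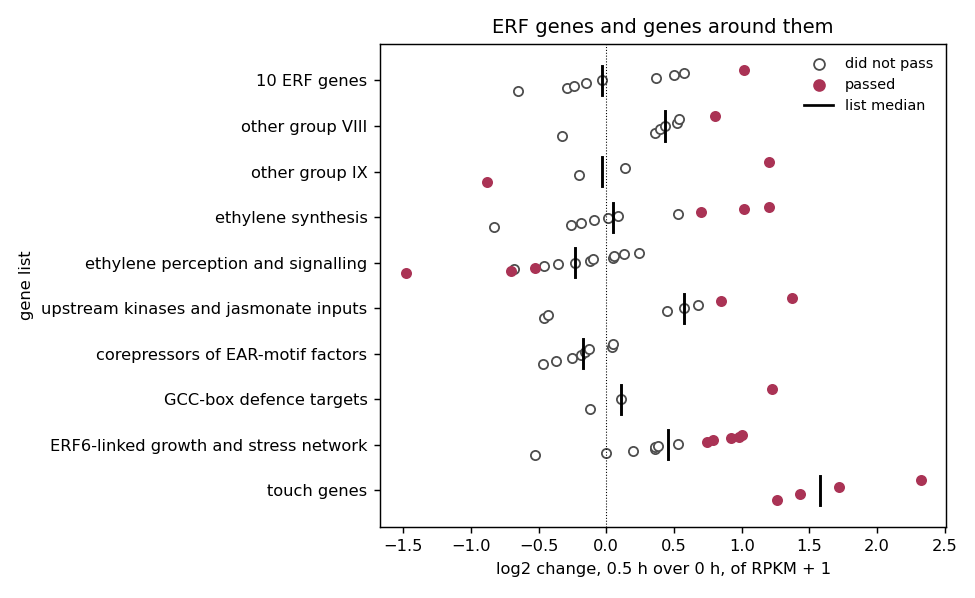
Log2 change of RPKM + 1 from 0 h to 0.5 h (x axis) of each tested gene in the 10 gene lists (rows); filled points passed, open points did not, and the black bars are list medians. The medians lie at -0.03 for the 9 tested of the 10 ERF genes, 0.46 for the ERF6-linked network and 1.58 for the touch genes.

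The 4 TCH genes first described as induced by touch all rose. TCH3 went from 330 ± 46.7 to 1666 ± 382 RPKM and TCH4 from 496 ± 75.4 to 1637 ± 180 RPKM (2.32 ± 0.22 and 1.72 ± 0.19). CAM2 (TCH1) and TCH2 had log2 changes of 1.26 ± 0.15 and 1.43 ± 0.22. Up to a share of 0.133 of the CAM2 reads and 0.0207 of the TCH3 reads were multi-mapped, so the level of CAM2 is uncertain. CAM2, TCH2 and TCH3 overlap other annotated genes, and TCH2 lost its call without the 2nd library of 0.5 h (adjusted p = 0.056). The summed level of the list was 1234 and 994 RPKM at 0 h and 3589 and 4472 RPKM at 0.5 h. Several ERF genes are known to respond to touch, and the part of handling in the rise of ERF6 was not tested. Of 5 shoot markers 2 fell, the light-harvesting genes LHCB6 (-1.41 ± 0.16, adjusted p = 0.0056) and LHCA3 (-1.29 ± 0.16, adjusted p = 0.0069). LHCA3 lost its call without the 2nd library of 0.5 h (adjusted p = 0.060). The summed level of the 5 was 11182 and 11563 RPKM at 0 h and 9315 and 9828 at 0.5 h. Most of this sum was RBCS1A, the small subunit of Rubisco, at 7822 ± 199 and 7848 ± 344 RPKM (SD, n = 2), which did not pass. Of 7 root markers 3 were tested and SHR rose (0.78 ± 0.14, adjusted p = 0.020), a call lost in each fit that left out a library (adjusted p 0.0504 to 0.11). The summed level of the 7 was 171 and 289 RPKM at 0 h and 189 and 187 at 0.5 h, and PYK10 held most of it. The defining root genes PIN2, COBL9, EXPA7 and WER were at 0.0676 to 1.76 RPKM, and 3 of these 4 differed between the 0.5 h libraries. As given beside ERF1A and ERF2, EXPA7, PIN2 and COBL9 had more reads in the 1st, while WER had 23 and 19. The leaf gene CA1, a carbonic anhydrase, had 44.6 and 82.8 RPKM in these libraries and 44.6 and 54.9 at 0 h. The 2nd library, in which ERF1A and ERF2 were highest, was thus also the highest of the 4 in CA1. The other shoot markers differed less between the 0.5 h libraries. RBCS1A had 7605 and 8092 RPKM, RCA 618 and 657, LHCB6 371 and 341, and LHCA3 676 and 655. The part of the CA1 difference in the ERF1A and ERF2 values was not tested. In RNA of whole seedlings, fewer cells of a type and less RNA per cell cannot be told apart.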

How the data were processed

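Whole seedlings were sequenced from 2 libraries at 0 h and 2 at 0.5 h, grouped by sample titles. Per the labels' protocols, total RNA went into a TruSeq kit. The deposited table gives RPKM values, scaled by the authors with TMM, as the file's name says, and a deposited fraction per gene, the highest share of multi-mapped reads. The submitters' processing notes name SAMtools and the TAIR10 build. No aligner, counting tool or strand option is stated in the labels or the file. Times gene length, the values lie on steps with 0.5 read added, and recovered reads totalled 20429739 to 27203588 a library, whole within 0.05 read for 99.992 to 100.0% of genes without multi-mapped reads. The chi-square per gene between replicates was 16.49 (0 h) and 15.35 (0.5 h), far beyond counting error, so every library entered as its own sample.

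Testing took genes whose mean reached 1 RPKM and used limma 3.58.1 in R 4.3.3 on log2(RPKM + 1) with an intensity trend, group alone, two-sided, with Benjamini-Hochberg adjustment over 18039 genes and a threshold of 0.05. Residual degrees of freedom were 2 and prior ones 4.824, and the procedure was tested on simulated data. Intervals are unadjusted 95% limma intervals, and intervals and floors of 3 reads cover no preparation error. Exact permutation tests compared ratios. The members and 11 other lists were chosen with earlier results of these data known. Named were all members, every tested gene of groups VIII and IX, and of other lists each called gene and the 2 most abundant; other genes were named after their values were seen, and 1 gene under this rule is not reported here. Names came from RefSeq TAIR10.1, where 32835 loci were found. Promoter windows came from the genome of that build, and protein sequences were not used here. Alternatives were other pseudocounts, minimum levels, scalings and limma settings, limma-voom on recovered reads, a replicate block and leaving out each library. Another left out genes with a multi-mapped share above 0.05. Same-numbered libraries did not deviate together (correlation of deviations -0.078). Tables were handled in Python 3.11.15 (pandas 2.3.3, numpy 2.4.6), with figures from matplotlib 3.10.9.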

Additional observations from a re-analysis of the deposited data

How the results depend on the processing

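Of the 10 ERF genes, only ERF6 passed in the chosen fit, and it passed in 13 of 15 alternatives. Testing all 33602 genes without a minimum level left 0 higher and 2 lower genes. ERF6 was then at 1.02 (adjusted p = 0.12), the counts of higher and lower genes were 0 in the members, the rest of groups VIII and IX, the pathway lists and the touch genes, and the medians were 0.15 for other group VIII and 0.01, a reversed sign, for other group IX. Quantile scaling called 2 members, adding ERF4 at 0.57, and turned ERF104 to 0.05. ERF7 joined ERF12 for 2 higher in other group VIII under median-of-ratios and quantile scaling, robust estimation and limma-voom. It also did so without genes whose multi-mapped share exceeded 0.05, called multi-mapped genes here. A minimum of 5 RPKM left 0 higher in other group IX (median -0.54) and in the GCC-box genes. It gave 1 lower in the ERF6-linked network, as did robust estimation, limma-voom and leaving out multi-mapped genes. The network's median was 0.42 with a pseudocount of 5, 0.53 with the minimum of 5 RPKM, 0.49 and 0.51 under median-of-ratios and quantile scaling, and 0.38 without multi-mapped genes. The corepressor median was -0.13 with a pseudocount of 5, and that of the GCC-box genes 0.55 without multi-mapped genes. Leaving out each library gave 489 to 1131 higher and 234 to 787 lower genes and 0 to 2 higher members. The log2 changes then ran over 0.86 to 1.19 for ERF6, -0.03 to 0.77 for ERF2, -0.50 to 0.01 for ERF1B and -0.10 to 0.04 for ERF104. Counts of higher genes were 0 in all 4 such fits in other group VIII and ran over 0 to 1 in other group IX, 1 to 2 in ethylene synthesis, 1 to 3 in the kinases, 0 to 1 in the GCC-box genes and 2 to 5 in the network. Counts of lower genes ran over 0 to 1 in other group IX, 0 to 1 in synthesis and 1 to 2 in perception. Medians ran over -0.18 to 0.12 in other group IX, -0.10 to 0.09 in synthesis, 0.42 to 0.73 in the kinases, -0.25 to -0.12 in the corepressors, -0.18 to 0.40 in the GCC-box genes, 0.38 to 0.58 in the network and 1.37 to 1.78 in the touch genes. In these fits the lone library of a time is assumed to vary like the pair. The causes of these differences were not tested. Libraries share only a number across times (correlation of deviations -0.078). With a replicate block ERF6 stayed at 1.02 (adjusted p = 0.016), ethylene synthesis had 1 lower, and RTE1 (0.053) and MKK9 (0.054) did not pass. Depth limits ERF1B, ORA59 and ERF13, with 9 to 94 reads.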
